A study of Mus musculus with 10 samples.

Results

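The brush border is the dense carpet of microvilli on the luminal face of absorptive enterocytes, and its membrane carries the enzymes that complete digestion. Peptidases there trim peptides to amino acids and short peptides, disaccharidases split sugars, and intestinal alkaline phosphatase removes phosphate from luminal substrates. These ectoenzymes are made by mature enterocytes of the villus and are classical markers of enterocyte differentiation. Here 9 genes of this class were followed: the peptidase genes Mep1a, Mep1b, Anpep, Enpep and Dpp4, the disaccharidase genes Sis, Lct and Treh, and the phosphatase gene Akp3. The members were all probes whose deposited symbol was one of these names. Of the 9 genes 7 were found, with 9 probes in all, among 18138 symbols and 25697 probes of the array. No probe carries the symbol Sis or Lct. A probe with the older symbol 2010204N08Rik, which RefSeq lists as a synonym of Sis alone, lies outside that rule and was read beside the members.

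The arrays were made from the ileum, the most distal segment of small bowel, of 5 mice of genotype iPGC-1β and 5 wild-type mice, all of strain FVB/N and 3 to 4 months of age. The series calls the wild-type animals littermates. PGC-1β, the product of Ppargc1b, is a transcriptional coactivator that raises mitochondrial genes. In this field iPGC-1β names a mouse with raised PGC-1β in the epithelium of the gut, while the labels used here spell out neither the promoter nor the construct. The question was whether expression in the ileum differs between these genotypes.

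Each array had 12370 to 12771 detected probes (detection p under 0.05), and 9365 genes were tested after a filter on dim probes. The ileal bile acid binding protein gene Fabp6 and the microvillus gene Vil1 were bright in both groups, at mean log2 intensities of 14.55 and 13.66 on the wild-type arrays and 14.64 and 13.22 on the iPGC-1β arrays. The Ppargc1b probe read 8.32 ± 0.22 on wild-type and 7.70 ± 0.41 on iPGC-1β arrays (log2 intensity, SD, n = 5 each). It was lower on the iPGC-1β arrays (limma's adjusted p = 0.0452), and because it may lie outside the part of the gene that a construct carries, it does not check the labels. Wild-type replicate 5 stood apart in the enterocyte genes: it had the lowest value of its group in 6 of the 6 tested member genes. It was also the highest wild-type array in the mean of T cell (8.70), B and plasma cell (10.23), myeloid (7.97), proliferation and stem cell (8.23), goblet cell (11.32) and villus base and crypt genes (11.55, all log2 intensity). The part of these in the members' values was not tested, and results are also given without it.

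Transcripts of brush border peptidases were lower in the iPGC-1β ileum. Of the 6 member genes that passed the filter, Mep1b, Anpep, Enpep and Dpp4 fell, at 0.577, 0.574, 0.647 and 0.729 times the wild-type level, and 0 rose. Mep1a and Treh had differences of the same sign that did not pass the test. Over all 9365 genes 7.41% were called lower and 9.88% higher by limma at an adjusted p under 0.05. The median log2 difference of the 6 tested members was -0.64, against -0.05 over all tested genes. The RNA is from whole ileum, where fewer enterocytes and less transcript per enterocyte cannot be told apart.

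**Figure D1:**
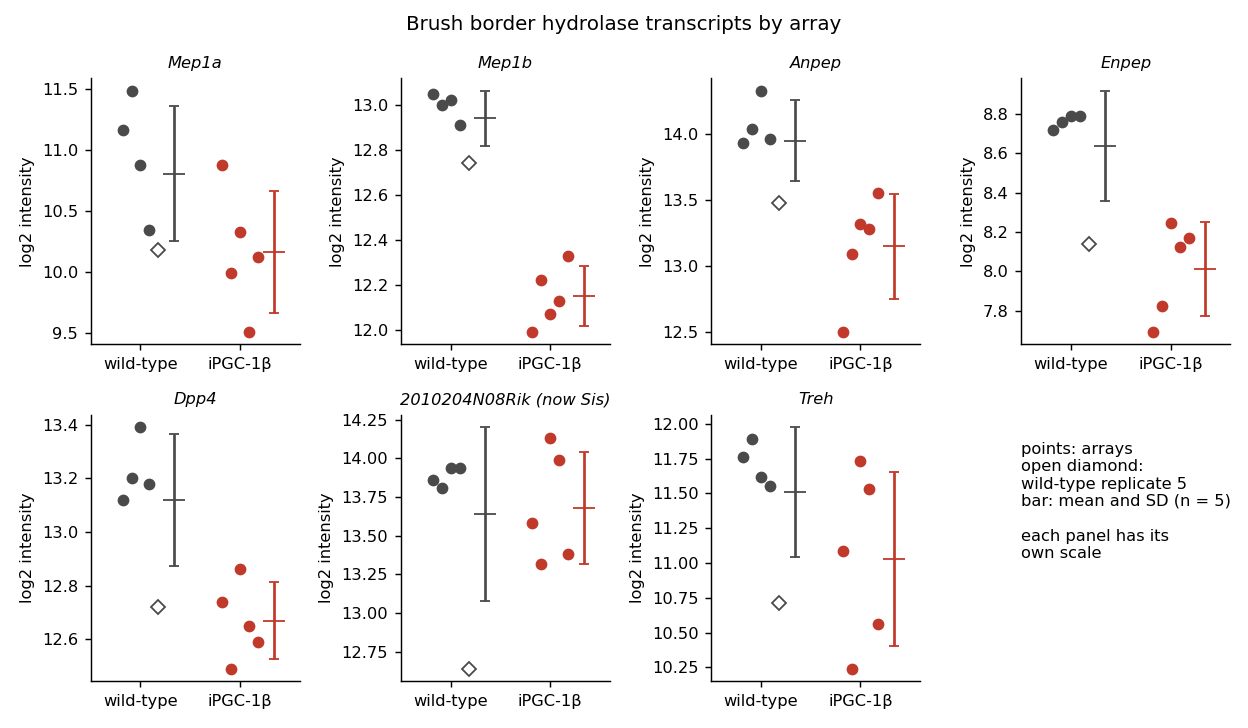
Log2 intensity (vertical axis, a separate scale in each panel) of the 6 tested member genes and of 2010204N08Rik (now Sis) on each of the 5 wild-type and 5 iPGC-1β arrays, with group mean and SD. Wild-type replicate 5 (open diamond) is the lowest wild-type array in every panel, and in Mep1b all iPGC-1β arrays lie below all wild-type arrays.

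Mep1b encodes the β subunit of meprin, a zinc endopeptidase of the astacin family that is anchored in the brush border membrane. Its brightest probe read 13.05, 13.00, 13.02, 12.91 and 12.74 on wild-type replicates 1 to 5 (log2 intensity). On iPGC-1β replicates 1 to 5 the same probe read 11.99, 12.22, 12.07, 12.13 and 12.33. The groups did not overlap, and the spread within each was small. Among the 6 tested members this was the 1 gene with separated groups, while 5.62% of all tested genes were separated with the iPGC-1β arrays lower. The log2 difference was -0.79 ± 0.12 (SE), or 0.577 times the wild-type level with a 95% interval of 0.482 to 0.692 (limma's adjusted p = 7.18e-04). A two-sided exact permutation test gave p = 0.00794, the smallest value that 5 against 5 arrays allow.

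Mep1b has 3 probes, and all of them read lower on the iPGC-1β arrays. The other probes gave log2 differences of -0.56 ± 0.23 and -0.70 ± 0.28 (SE), with adjusted p = 0.113 and 0.105 when limma was fitted to all kept probes, so neither passed the test. Their wild-type values lay close together, between 10.93 and 11.33. On iPGC-1β replicate 2 they read 9.72 and 9.28. On iPGC-1β replicates 3 and 5 they read 11.12 and 10.93, and 11.05 and 11.10, inside the wild-type range or just below it. The dimmer probes followed each other closely after removal of the group means (r = 0.986 over 10 arrays), and the brightest probe did not follow them (r = -0.17 and -0.09). These correlations describe probes read on the same arrays. The size of the fall on a single array thus depended on the probe. The stretch of transcript that each probe reads was not analysed here.

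**Figure D2:**
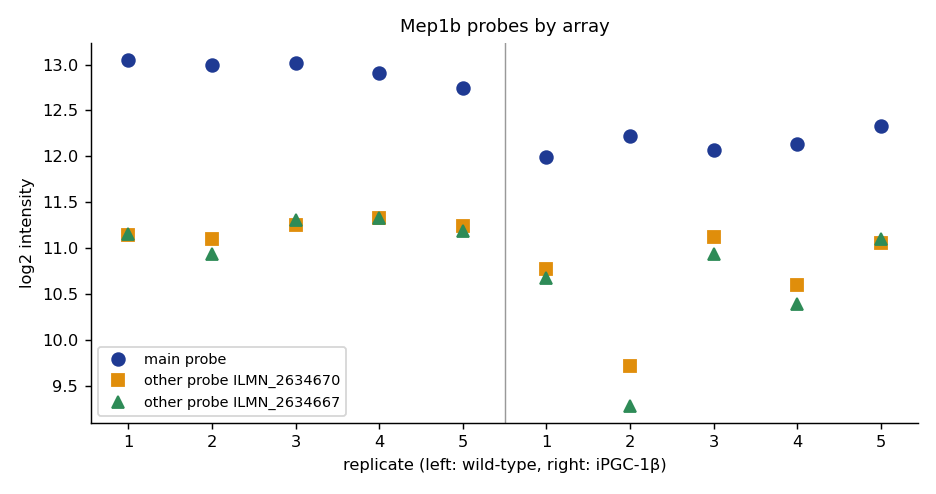
Log2 intensity of the 3 Mep1b probes on each array, wild-type replicates 1 to 5 on the left and iPGC-1β replicates 1 to 5 on the right. The brightest probe is lower on every iPGC-1β array, whereas the other probes are lowest on iPGC-1β replicate 2, at 9.72 and 9.28, and near the wild-type level on replicates 3 and 5.

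Mep1a encodes the α subunit of meprin, which is largely secreted unless it is held at the membrane by the β subunit. Its probe read 11.17, 11.49, 10.88, 10.35 and 10.18 on wild-type replicates 1 to 5, and 10.88, 10.00, 10.33, 9.51 and 10.13 on iPGC-1β replicates 1 to 5. The wild-type arrays were widely spread and the groups overlapped. The log2 difference was -0.65 ± 0.28 (SE), with a 95% interval of -1.25 to -0.04 and limma's adjusted p = 0.136, so it did not pass the test. The log2 ratio of Mep1b to Mep1a within an array changed by -0.15 from wild-type to iPGC-1β, less than its SD over the arrays of a group (0.45 and 0.58), with a two-sided exact permutation p = 0.651. A difference between the subunits was thus not detected, and with this spread a moderate one could be missed.

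Anpep encodes aminopeptidase N, also called CD13, which removes neutral amino acids from the amino end of peptides and is among the most abundant proteins of the brush border. The wild-type arrays read 13.93, 14.04, 14.33, 13.96 and 13.48 (replicates 1 to 5). The iPGC-1β arrays read 12.50, 13.09, 13.32, 13.28 and 13.55. The groups overlapped through wild-type replicate 5 and iPGC-1β replicate 5 alone. Anpep fell by 0.80 ± 0.20 (SE) on the log2 scale, to 0.574 times the wild-type level with a 95% interval of 0.423 to 0.780 (limma's adjusted p = 0.0169). It was the largest fall among the tested members by a margin of 0.01 over Mep1b, far inside either error.

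Enpep encodes aminopeptidase A, which removes acidic residues and is known for cleaving angiotensin II. Its probe read 8.72, 8.76, 8.79, 8.79 and 8.14 on wild-type replicates 1 to 5. It read 7.69, 7.82, 8.25, 8.13 and 8.17 on iPGC-1β replicates 1 to 5. Of the wild-type arrays 4 agreed closely and lay above every iPGC-1β array, and wild-type replicate 5 lay among the iPGC-1β arrays. The log2 difference was -0.63 ± 0.17 (SE), or 0.647 times the wild-type level with a 95% interval of 0.505 to 0.830 (limma's adjusted p = 0.0202). The call was lost without wild-type replicate 3 (limma's adjusted p = 0.0523) and without wild-type replicate 4 (0.0516).

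Dpp4 encodes dipeptidyl peptidase 4, or CD26, which releases dipeptides that end in proline or alanine and inactivates incretin hormones. Wild-type replicates 1 to 5 read 13.12, 13.20, 13.39, 13.18 and 12.72. The iPGC-1β replicates read 12.74, 12.49, 12.86, 12.65 and 12.59. Again wild-type replicate 5 alone reached into the iPGC-1β range. The log2 difference was -0.46 ± 0.14 (SE), or 0.729 times the wild-type level with a 95% interval of 0.589 to 0.904 (limma's adjusted p = 0.0448). This was the weakest of the 4 calls: it was lost when any 1 of wild-type replicates 1 to 4 or iPGC-1β replicates 1, 2, 4 and 5 was omitted (adjusted p from 0.0573 to 0.109, limma). The sign stayed negative in each of these fits.

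Without wild-type replicate 5, all iPGC-1β arrays lay below all remaining wild-type arrays in 4 of the 6 tested members (Mep1b, Anpep, Enpep and Dpp4), where 9.50% of all genes tested in that way were separated downward. The log2 differences were then -0.84 for Mep1b, -0.92 for Anpep, -0.75 for Enpep and -0.55 for Dpp4, each larger than with all arrays. Their limma adjusted p-values were 6.15e-04, 0.00734, 0.00355 and 0.0104. The array was singled out because it was the lowest wild-type array in these genes, so larger falls and more separation follow from its omission, and nothing is read from the count against the background.

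**Figure D3:**
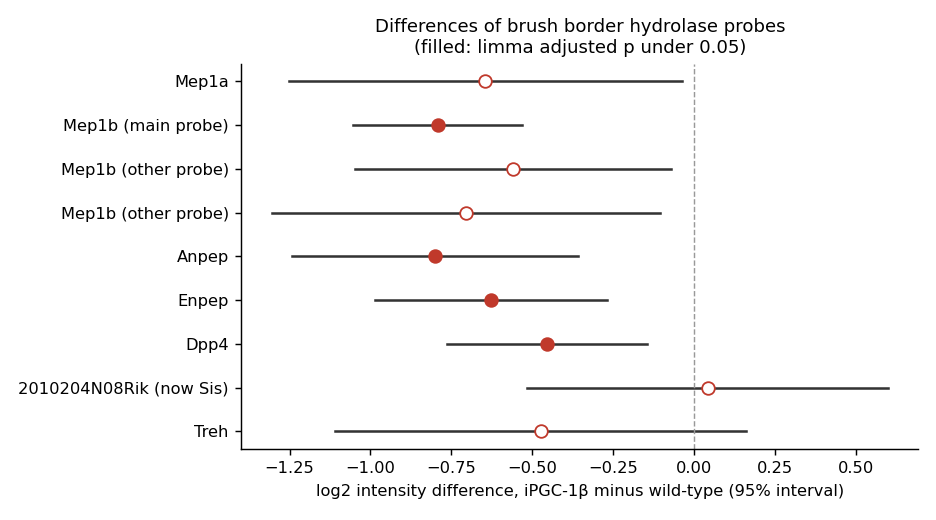
Log2 difference between iPGC-1β and wild-type arrays (horizontal axis, point) with its 95% interval (line) for each kept probe of the member genes and for 2010204N08Rik (now Sis). The 4 called genes (filled) lie between -0.80 and -0.46, the uncalled probes of Mep1a, Mep1b and Treh also lie below 0, and 2010204N08Rik lies at 0.04.

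No disaccharidase gene was called in either direction. Treh encodes trehalase, which splits the disaccharide trehalose of fungi and insects. It read 11.76, 11.89, 11.62, 11.55 and 10.71 on wild-type replicates 1 to 5 and 11.09, 10.24, 11.73, 11.53 and 10.56 on iPGC-1β replicates 1 to 5. The groups overlapped: iPGC-1β replicates 2 and 5 lay below every wild-type array, and iPGC-1β replicate 3 lay above 3 of them. The log2 difference of -0.47 ± 0.29 (SE) had a 95% interval of -1.11 to 0.16 (limma's adjusted p = 0.295). With wild-type replicate 5 and iPGC-1β replicate 3 both omitted, a choice made with the values known, Treh was called lower (-0.84, limma's adjusted p = 0.0356).

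Sucrase-isomaltase, the product of Sis, splits sucrose and the branch points of starch fragments and is a standard marker of the brush border. Its transcript, read by the 2010204N08Rik probe, showed no difference between genotypes beyond its error. The wild-type arrays read 13.86, 13.81, 13.94, 13.94 and 12.64, and the iPGC-1β arrays 13.58, 13.32, 14.13, 13.99 and 13.38 (replicates 1 to 5). Of the wild-type arrays 4 lay within a narrow band that the iPGC-1β arrays straddled, and wild-type replicate 5 was far below. The log2 difference was 0.04 ± 0.26 (SE), with a 95% interval of -0.52 to 0.60 (limma's adjusted p = 0.934). The interval includes falls as large as that of Dpp4, and the sign turned negative with median centring (-0.06) and with array weights (-0.11). Without wild-type replicate 5 the difference was -0.21, with limma's adjusted p = 0.454, and with that array and iPGC-1β replicate 3 both left out it was -0.33 (0.188).

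The members were also set against sucrase-isomaltase within each array. The log2 ratio to 2010204N08Rik was lower on every iPGC-1β array than on any wild-type array for Mep1b, Enpep, Dpp4 and Treh, 4 of the 6 tested members, with changes of -0.83, -0.67, -0.50 and -0.52. Of all tested genes except 2010204N08Rik, the members included, 1.30% were separated in this way. For Anpep the ratio changed by -0.84 and for Mep1a by -0.69, with overlapping groups. Without wild-type replicate 5 the changes of these 4 separated ratios were smaller, at -0.63, -0.54, -0.35 and -0.47. Groups that are separated on all arrays stay separated when an array is dropped, so only the sizes are informative here. The reference gene was chosen after its values were seen, so these separations are given as a description and with no test.

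Akp3 encodes an alkaline phosphatase that in the mouse is known mainly from the duodenum. Its probe was above background on 0 of 5 wild-type and 0 of 5 iPGC-1β arrays, with detection p between 0.0526 and 0.693. No fold change is given, since both groups were at background.

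Up to 250 bases before the start in RefSeq's promoter table, leaving out any inside the gene as RefSeq's gene table gives it, are shown for Enpep and Dpp4, which fell, and for Sis, which was not called, to compare the short sequence cores that known enterocyte regulators bind. The windows are from GRCm38.p6, on the minus strand and written 5′ to 3′: chr3:129332750-129332999 for Enpep, chr2:62412316-62412481 for Dpp4 (166 bases, since 84 of its window lie inside the gene) and chr3:72967864-72968113 for Sis. Capitals mark matches on either strand to TTTAT (CDX factors), GATAA (GATA factors) and CAAAGT (HNF4 factors), and the TTTAT and GATAA cores can overlap.
Enpep: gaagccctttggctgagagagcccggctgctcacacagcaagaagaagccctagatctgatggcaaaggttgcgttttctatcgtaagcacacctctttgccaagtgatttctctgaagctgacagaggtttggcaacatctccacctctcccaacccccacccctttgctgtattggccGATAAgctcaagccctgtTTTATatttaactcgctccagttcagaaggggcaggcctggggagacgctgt
Dpp4: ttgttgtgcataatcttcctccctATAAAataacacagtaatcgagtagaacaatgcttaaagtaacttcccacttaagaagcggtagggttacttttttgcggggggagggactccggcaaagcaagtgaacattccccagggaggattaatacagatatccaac
Sis: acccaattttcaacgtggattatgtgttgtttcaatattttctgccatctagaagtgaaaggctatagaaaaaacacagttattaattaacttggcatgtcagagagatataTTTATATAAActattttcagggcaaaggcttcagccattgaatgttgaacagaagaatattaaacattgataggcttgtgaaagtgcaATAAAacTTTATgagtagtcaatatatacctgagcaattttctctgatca
The Sis window held 4 matches to TTTAT, the nearest starting 43 bases before the gene start. The Enpep window held 1 match to GATAA, 70 bases before the start, and 1 to TTTAT. The Dpp4 stretch held 1 match to TTTAT and none to GATAA, and the Sis window none to GATAA. The window of Mep1a lies wholly inside the gene and was not read. In 250 bases Treh had 2 matches to CAAAGT, and Anpep, with a GC content of 72.8% against 31.6% for Sis, had 0 matches to any of the 3. Among 32851 windows of 250 bases, not trimmed for genes, 37.3% held TTTAT, 22.6% GATAA and 12.6% CAAAGT. A match is a description of these letters and not of a bound site. Anpep is known in human to use separate promoters in myeloid and in epithelial cells, and the window at the RefSeq start need not be the one used in enterocytes.

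Transcription factors of the enterocyte, not all of them known to act on the members, were read in the same arrays. Of 19 tested genes of enterocyte transcription factors 7 fell and 0 rose, with a median log2 difference of -0.42. The 7 became 2 with Vil1 and 3 with the enterocyte list as a covariate, each with 1 call higher. When 1 array was omitted they became 2 to 8, with 2 without wild-type replicate 2 or iPGC-1β replicate 4, 3 without wild-type replicate 1 or 3, and 4 without iPGC-1β replicate 1 or 3. Hnf4a, a main regulator of brush border genes, changed by -0.42 (limma's adjusted p = 0.0373) and Gata6 by -0.43 (0.0448). The largest called differences were Klf4 at -0.84, Nr1h4, the bile acid receptor FXR, at -0.64, Isx at -0.62 and Foxa3 at -0.57. Cdx2 lay at -0.13 (limma's adjusted p = 0.564) and Cdx1 at -0.20 (0.403), neither called.

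Other hydrolases of the enterocyte showed the same sign as the members. Of 15 tested genes 15 lay below 0, 2 fell and 0 rose, with a median log2 difference of -0.50, while 55.8% of all tested genes lay below 0. The 2 calls became 5 with median centring or array weights, and 0 with 1 call higher with Vil1 or the enterocyte list as a covariate. They became 0 without wild-type replicate 3, 1 without wild-type replicates 1, 2 or 4 or iPGC-1β replicates 1, 2 or 4, and 4 without wild-type replicate 5 or iPGC-1β replicate 3. Naaladl1, which encodes an acidic dipeptidase-like protein of the ileum, changed by -0.96 (limma's adjusted p = 0.0373). Ada, adenosine deaminase, which is mostly a cytosolic enzyme, changed by -1.38 (0.0227). Abp1, a symbol that RefSeq lists as a synonym of more than 1 gene, lay at -0.50 (limma's adjusted p = 0.0772). It is counted among the 15, although the symbol does not settle whether the gene encodes a hydrolase. Xpnpep2, Dpep1 and Mme, further peptidases of the membrane, lay at -0.56, -0.46 and -0.73 without passing the test.

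Genes of the structure that carries the enzymes lay mostly below 0, and the 1 called higher, Ckb, encodes an energy enzyme. Of 19 tested genes of microvillus structure 16 lay below 0, 4 fell and 1 rose, with a median of -0.33. With median centring the 4 became 8, and with Vil1 as a covariate 1 fell and 2 rose. They became 1 without wild-type replicate 1 or 2 and 2 without wild-type replicate 3 or iPGC-1β replicate 2. Eps8l3, an actin regulator, fell by 1.25 on the log2 scale, Espn, which bundles actin, by 0.44 and Tmigd1 by 1.00 (limma's adjusted p = 0.00128, 0.0232 and 0.0299). Ckb, brain-type creatine kinase, an energy enzyme found in the terminal web, rose 2.53-fold (1.19e-04). Vil1, villin, the main actin bundler of microvilli, lay at -0.44 and was not called (0.102). Of 19 tested genes for delivery to the apical membrane 3 fell and 1 rose, with a median of -0.25. The 3 became 5 with median centring, 6 with array weights and 1 with the enterocyte list as a covariate. Those that fell were Myo5b, a motor whose loss in human causes microvillus inclusion disease, at -0.75, Stx3, a SNARE of the apical membrane also mutated in that disease, at -0.75, and Sybl1 (now Vamp7), a further SNARE, at -0.50. The gene that rose was AI413782 (now Vipas39), at 0.94.

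Enterocyte genes other than hydrolases were read as a measure of the absorptive cells. Of 27 tested genes 6 fell and 0 rose, with a median log2 difference of -0.47. The called genes of the lowest p were Slc7a9 at -0.75, Slc15a1 at -0.95, Mttp at -0.90 and Tm4sf20 at -0.98. Slc15a1 was dim, with mean log2 intensities of 5.927 on wild-type and 4.975 on iPGC-1β arrays. It was above background on 5 wild-type but only 2 iPGC-1β arrays, so the size of its fall is uncertain. The mean of the list lay between 10.86 and 11.41 on the wild-type arrays, with 10.86 on wild-type replicate 5, and between 10.40 and 11.04 on the iPGC-1β arrays. Of the villus tip markers 11 of 11 tested lay below 0, 4 of them called (Egfr at -0.60, Klf4 at -0.84, Ada at -1.38 and Ccrn4l, now Noct, at -1.38), with a median of -0.75. Of 7 genes of the middle of the villus 3 fell (Slc7a9, Slc15a1 and Slc7a7, the last at -0.86) with a median of -0.74, and of 8 genes of the villus base and crypt 1 fell (Il18 at -1.18) with a median of -0.17. With 1 array omitted the count of enterocyte calls lay between 4 (without wild-type replicate 2 or 4) and 7, and that of villus tip calls between 2 (without wild-type replicate 3 or iPGC-1β replicate 3) and 5. With Vil1 as a covariate 0 villus tip genes were called lower and 1 higher, and with median centring 9 enterocyte genes were called lower. Whether these zones differ from each other was not tested. The lists share genes, among them Klf4, Ada, Slc7a9 and Slc15a1, so their counts are not separate observations.

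With the enterocyte list as a covariate, the falls of Anpep (-0.49, limma's adjusted p = 0.223), Enpep (-0.28, 0.330) and Dpp4 (-0.16, 0.545) were no longer called. With Vil1 as the covariate the same 3 calls were lost, at -0.39 (0.240), -0.26 (0.282) and -0.24 (0.366). Mep1b, read by its brightest probe, kept its call with either covariate, at -0.78 (limma's adjusted p = 0.0104) and -0.73 (0.0113). The other Mep1b probes were not fitted with a covariate. Treh lay above 0 in both fits, at 0.39 and 0.21, and was not called. The 2010204N08Rik probe of Sis was called higher with the list as the covariate (0.76, limma's adjusted p = 0.0350) and lay at 0.62 with Vil1 (0.114). Both covariates were themselves lower on the iPGC-1β arrays, with means of 10.78 against 11.19 for the list and 13.22 against 13.66 for Vil1, so covariate and genotype cannot be fully told apart.

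**Figure D4:**
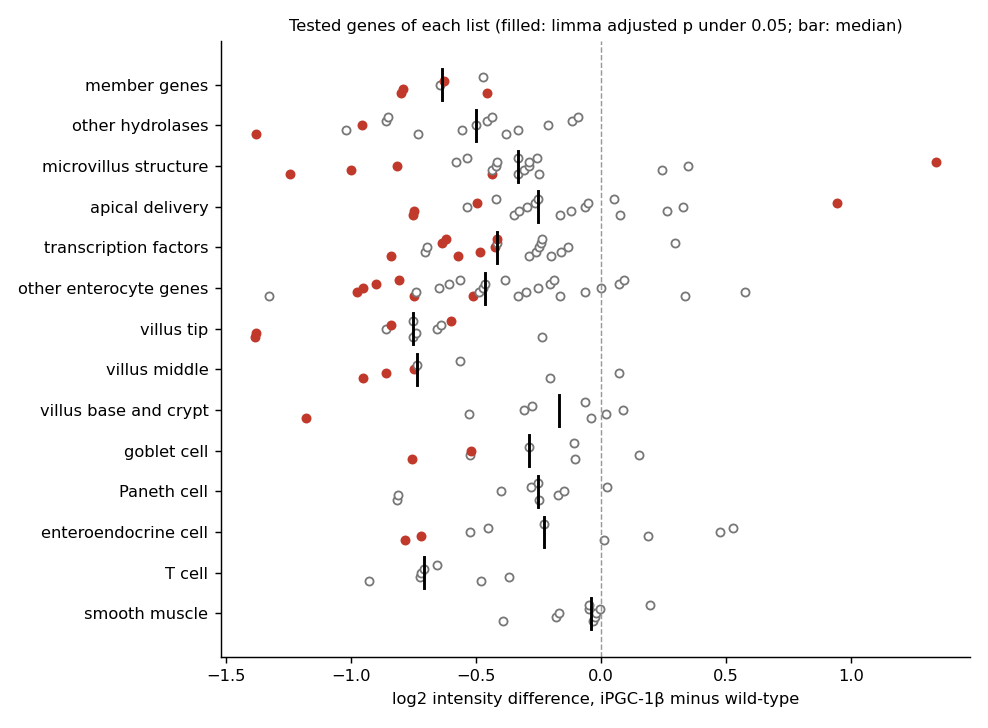
Log2 difference between iPGC-1β and wild-type arrays (horizontal axis) of every tested gene in the member set and in 13 other lists, filled where limma's adjusted p was under 0.05, with the median of each list as a bar. The medians are -0.64 for the member genes, -0.75 for the villus tip, -0.47 for other enterocyte genes, -0.71 for T cell genes (0 called) and -0.04 for smooth muscle. Some genes stand in several lists.

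Markers of other cell types and of regions of the small bowel were also read. Of 7 tested goblet cell genes 2 fell (Spdef at -0.52 and Ccl9 at -0.76), with a median of -0.29. Of 9 enteroendocrine genes 2 fell (Sct at -0.72 and Gip at -0.78), with a median of -0.23, and 4 lay above 0, among them Chgb at 0.53 and Chga at 0.47, neither called. None was called among 9 Paneth cell, 13 proliferation and stem cell, 10 smooth muscle, 9 fibroblast, 5 B and plasma cell, 8 myeloid, 7 endothelial and 9 proximal small intestine genes by limma, where 6 of these 70 genes had an unadjusted p under 0.05. Of 7 distal small intestine genes 3 fell, Fgf15 at -1.79, Ostb (now Slc51b) at -0.81 and Naaladl1. The share called lower was 28.6% of goblet, 22.2% of enteroendocrine and 42.9% of distal genes, all short lists. It was 22.2% of the enterocyte genes other than hydrolases and 7.41% of all tested genes. The goblet and enteroendocrine calls each fell to 0 in several fits with 1 array omitted, among them those without wild-type replicate 2, 3 or 4, and the distal calls to 1 without wild-type replicate 2, 3 or 5 or iPGC-1β replicate 2 or 4. T cell genes had a median of -0.71, with 7 of 7 tested below 0, 0 called by limma and 1 with an unadjusted p under 0.05. With the enterocyte list as a covariate 4 of them were called lower, and with Vil1 2 were. The T cell mean lay between 7.79 and 8.70 on wild-type and between 5.93 and 8.11 on iPGC-1β arrays, and its part in the members' differences was not tested. Of the pancreatic acinar genes 1 was tested, Ela1 (now Cela1) at 0.29.

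Within the groups, the members did not all vary together. After subtraction of group means, Anpep and Enpep were the closest pair (r = 0.865 over 10 arrays, 0.840 without wild-type replicate 5), followed by Dpp4 and Treh (0.780 and 0.651) and Mep1b and Anpep (0.765 and 0.659). Mep1a and Anpep had the lowest value over all arrays, at -0.10, and -0.47 without that array. Other pairs turned with its omission: Mep1b and Treh went from -0.01 to -0.55 and Mep1b and Dpp4 from 0.23 to -0.52. The non-member genes whose deviations were most like the mean deviation of the 6 members were D630014A15Rik (now Insr, the insulin receptor gene) at r = 0.970, Gal3st2 at 0.955, Crim1 at 0.954, Gal3st1 at 0.948, Arhgef19 at 0.944 and Mertk at 0.939. Without wild-type replicate 5 these values were between 0.802 and 0.922. These genes did not all share the members' fall. Their log2 differences between genotypes were 0.405, -0.399, -0.495, 0.558, 1.08 and 0.0191, in that order. Those of Gal3st2 and Crim1 had the sign of the members' differences. Gal3st1 and Arhgef19 were called higher (limma's adjusted p = 0.0443 and 0.00126), and the others were not called. The array means of the members deviated by -0.50 on wild-type replicate 5 and by between -0.22 and 0.23 on the others. That array weighed little in the correlation of Anpep with Enpep and heavily in others, such as that of Mep1b with Dpp4. The points share arrays, RNA samples and normalization, and no p is given.

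**Figure D5:**
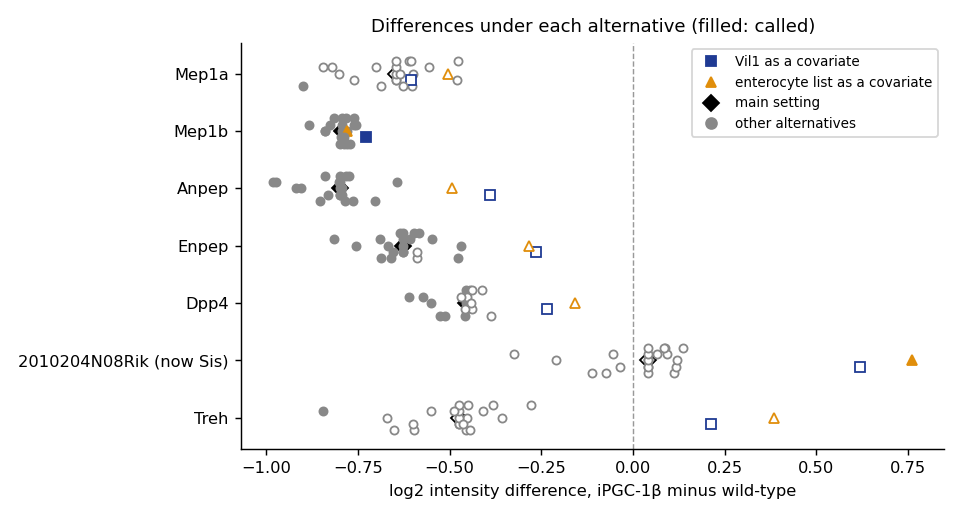
Log2 difference of each tested member and of 2010204N08Rik (horizontal axis) in the main setting (black diamond, always filled) and under 23 alternatives (filled where called). The brightest Mep1b probe is called under every alternative, between -0.88 and -0.73, and the other Mep1b probes, not called when fitted, are not drawn. The values of Anpep, Enpep and Dpp4 nearest to 0 come from the fits with a covariate.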

How the data were processed

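Total RNA of whole ileum was hybridised to Illumina arrays after Qiazol extraction and biotin labelling, per the labels' protocols. The submitters' processing notes name GenomeStudio. For each probe and array the deposited table holds a linear intensity (an average signal) and a detection p-value, per the file headers. The authors' own processed intensity values, deposited as a separate table with no stated method, served as an alternative. Of the columns of sample values 0 were left unused.

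Intensities were corrected with normexp (background inferred from detection p-values, offset 16), normalized by quantiles and log2-transformed (neqc, limma 3.58.1, R 4.3.3). Probes with a detection p under 0.05 on at least 5 of 10 arrays were kept (12349), and the kept probe with the highest mean stood for its symbol. Groups were compared with limma (lmFit, eBayes, no covariate) and Benjamini-Hochberg adjustment over 9365 genes at 0.05. Single members were also compared by a two-sided exact permutation test over 252 relabelings. The pipeline was tested on simulated data. Old symbols were updated through RefSeq (GRCm38.p6): 14307 were current, 2906 matched 1 synonym and 925 stayed as they are. Sequences are RefSeq's, and windows for 7 of the 9 members were read.

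Replicate numbers only name arrays. Nothing in the labels ties arrays to litters or slides. The p-values therefore reflect only the spread among these samples, which may be partly technical. The 5 arrays a group limit the precision. Members and lists were chosen with earlier results of these data known. Named are every member probe, the up to 4 genes of lowest p in a list (with further genes chosen after their values were seen) and the 6 genes most alike. Some genes and a motif of the lists are not reported here, although the list counts include those genes.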

Additional observations from a re-analysis of the deposited data

Results flagged for a closer look

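In 3 of the 18 groups of 5 arrays examined among kept member probes and the 2010204N08Rik probe, the lowest array lay far from the others by Dixon's criterion (a gap over 0.71 of the group's range), and in all 3 it was wild-type replicate 5. Its log2 intensity was 12.64 for 2010204N08Rik (now Sis), 8.14 for Enpep and 10.71 for Treh. Chance flags about 1 in 20 groups.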

How the results depend on the processing

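The direction of the members was negative in 136 of 138 fits over 23 alternatives, the exceptions being Treh with either covariate. These fits are not separate tests, since they share most or all arrays. A change of threshold, filter, adjustment or variance model alone left each log2 difference as in the main setting. The count of 4 members called lower became 1 with Vil1 as a covariate and 1 with the enterocyte list as a covariate, and lay between 2 and 4 when 1 array was left out (2 without wild-type replicate 3 or 4, 4 without replicate 5). It was 5 with array weights, where Mep1a was called, and 5 with wild-type replicate 5 and iPGC-1β replicate 3 both left out, chosen after the data were seen. The call of Dpp4 was also lost with cyclic loess (adjusted p = 0.0548) and without the filter (0.0514). The 694 genes called lower became 1077 at an adjusted p under 0.10 and 1105 with array weights, and lay between 421 and 792 when 1 array was left out (449, 445, 421 and 458 without wild-type replicates 1, 2, 3 and 4). The balance of 925 genes higher and 694 lower turned to 745 higher and 768 lower with median centring. No paired analysis was possible because the labels give no numbers that pair arrays across genotypes. Signal at background limits Akp3.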
